A study of Mus musculus with 6 samples.

Results

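The genes described here encode the machinery by which a cell takes up glucose, splits it by glycolysis, diverts it through the pentose phosphate pathway and stores it as glycogen. Of 35 listed genes, 32 could be measured, out of 19937 genes tested on the arrays. A member was taken where at least 1 probe set was annotated to its symbol alone, and it was represented by the brightest such probe set over the 6 arrays. The members were chosen by pathway, with earlier results of these data known. Gpi1, Eno1 and G6pdx had no such probe set and were not analysed here. The same holds for Gapdh, a glycolytic enzyme gene outside the list.

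Granulocytes of C57BL/6J mice gave the RNA for 6 Affymetrix Mouse Gene 1.0 ST arrays, 3 from caffeine-plus cells and 3 from caffeine-minus cells. Per the labels' protocols, both plates had received 15 mM caffeine for 4 hours and 2 washes before actinomycin D at 2 µg/ml, an inhibitor of transcription, was given to both for 4 hours. Caffeine was present beside actinomycin D in the caffeine-plus plate and absent in the caffeine-minus plate, whose samples carry the label of cells not treated with caffeine. Caffeine inhibits SMG1, the kinase that drives nonsense-mediated decay, and the series asks which transcripts accumulate when that decay is inhibited. The labels do not tell whether a replicate was a separate animal or culture, and a p-value here reflects only the scatter of these arrays, which may be technical.

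Mature neutrophil granulocytes draw most of their energy from glycolysis, since they hold few mitochondria. They feed the pentose phosphate pathway to make NADPH, which the NADPH oxidase spends in the respiratory burst, and they keep a glycogen store for sites where glucose is scarce. Hexokinase and phosphofructokinase are the steps that commit glucose to the path, and lactate dehydrogenase with the lactate carriers ends it. Whether the cells measured here were mature neutrophils was not tested.

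All log2 levels are the deposited values, and every difference is the caffeine-plus mean less the caffeine-minus mean, with its standard error (n = 3 arrays per group, limma, Benjamini-Hochberg adjustment over all 19937 genes). A gene rose or fell where the adjusted p was under 0.05. Both words name a difference between the groups, as no array measured cells before actinomycin D. By that rule 4 of 32 members rose and 14 fell, while 14 did not pass. Over all genes tested, 16.2% rose and 21.7% fell. Against that background, 12.5% of the members rose and 43.8% fell. That background includes dim genes, while 28 of the 32 members lie above the median level. In a fit of the genes above that level, 3070 of 9968 rose and 3496 fell. Of the 28 members there, 4 rose and 12 fell. Beside these brighter genes the share of members that rose was low, and the share that fell was closer to theirs. Shares of all genes given beside later groups and lists include dim genes, so they are a low background for bright genes. The arrays of the groups did not overlap for 6 members on the higher side and 15 on the lower side, as was so for 19.5% and 26.3% of all genes tested. The median difference was -0.17 among the members and -0.04 over all genes tested. With arrays centred on their medians these were -0.047 and 0.08, and after quantile normalization -0.07 and 0.02.

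**Figure D1:**
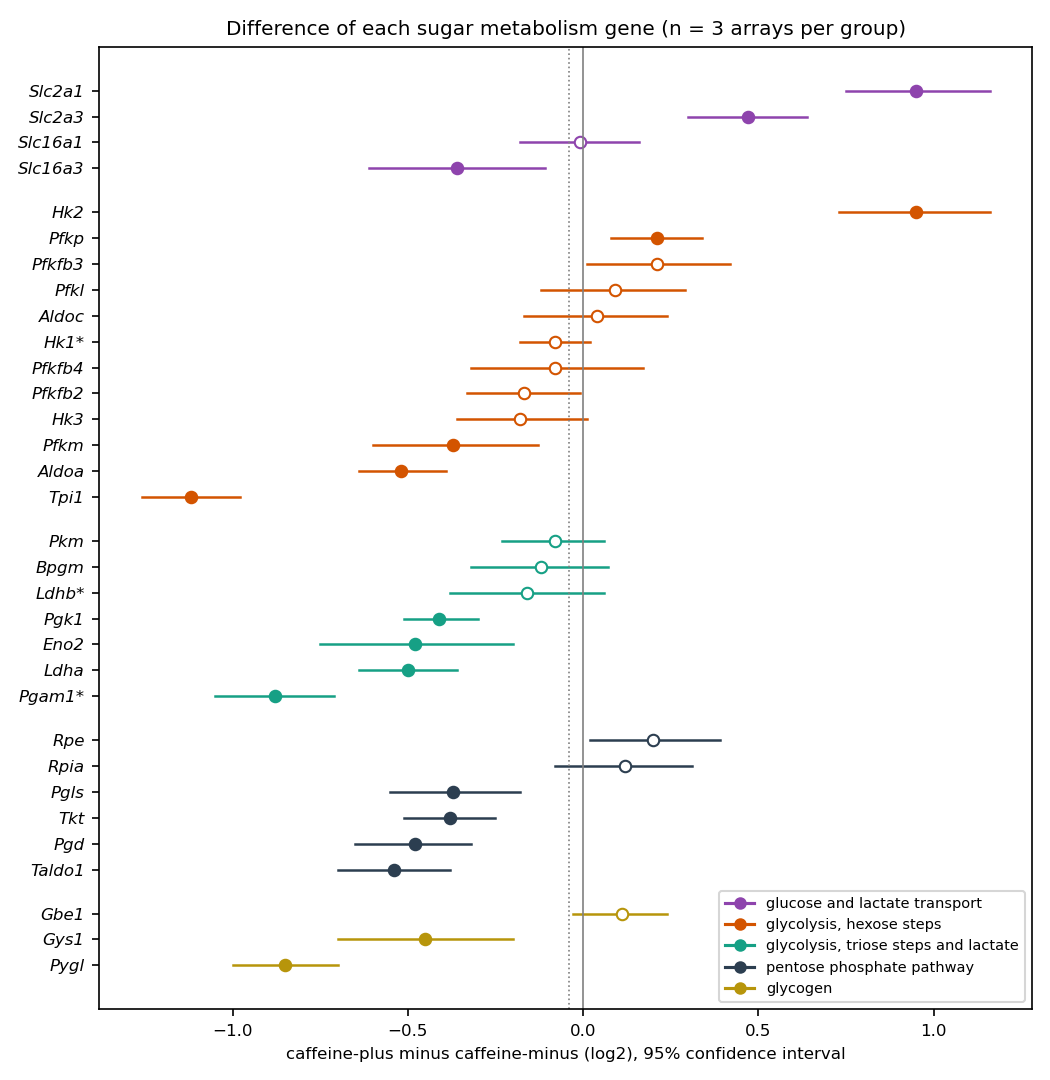
Difference between caffeine-plus and caffeine-minus cells (log2, horizontal axis) for each of the 32 measured genes, grouped by role, with 95% confidence intervals. Filled points passed the threshold, open points did not, stars mark the 3 genes whose probe set is doubtful, and the dotted line is the median of all genes at -0.04. The glucose transporter genes and Hk2 lie to the right, and most genes of the later steps, the pentose phosphate pathway and glycogen lie to the left.

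The probe sets of 3 members are doubtful in their gene. Identifiers on this array run along the chromosomes, and the 12 nearest listed probe sets of most members belong to genes on the member's own chromosome. For the brightest probe sets of Hk1, Ldhb and Pgam1 they belong to genes on another chromosome, as they do for 2.57% of the 21078 probe sets that could be checked. Near-identical copies elsewhere in the genome could give such signal. The Hk1 probe set, 10414661, is annotated by a single accession that the table also gives to probe sets shared with the ribosomal protein gene Rpl17. With probe sets on the own chromosome in their place, which leaves Pgam1 out, 4 of 31 members rose and 14 fell. The falls then lacked Pgam1 and gained Ldhb (log2 difference -0.35, limma adjusted p = 0.0201).

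The 2 glucose transporter genes both rose. Slc2a1 encodes GLUT1, a widespread glucose transporter. Its log2 levels were 8.76, 8.61 and 8.44 in caffeine-plus arrays 1 to 3, against 7.76, 7.55 and 7.65 in caffeine-minus arrays 1 to 3. All caffeine-plus arrays were above all caffeine-minus arrays. This is a 1.94-fold rise (log2 difference 0.95 ± 0.10, limma adjusted p = 5.99e-07).

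Slc2a3, the gene of the high-affinity transporter GLUT3, had log2 levels of 8.08, 8.14 and 8.13 in the caffeine-plus arrays and 7.66, 7.67 and 7.62 in the caffeine-minus arrays. Replicates lay within a few hundredths of their group mean, and the groups did not overlap. The rise was 1.38-fold (log2 difference 0.47 ± 0.08, limma adjusted p = 0.000159). Signal at Slc2a1 and Slc2a3 is uncertain in its gene where their spans overlap predicted genes of the reference annotation, Gm52706 and Gm12867 for Slc2a1 and Gm4482 for Slc2a3.

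The lactate carriers, which export the end product together with a proton, did not rise. Slc16a1, the gene of MCT1, differed by -0.01 ± 0.08 (limma adjusted p = 0.962), with a 95% confidence interval of -0.18 to 0.16. Slc16a3, the gene of MCT4, fell by 0.36 ± 0.12 on the log2 scale (limma adjusted p = 0.0218). Its levels ran from 6.81 to 7.07 in the caffeine-plus arrays and from 7.04 to 7.45 in the caffeine-minus arrays, so the groups overlapped. Slc16a3 no longer passed with caffeine-plus array 1 left out (adjusted p = 0.108) or 2 (0.0572), with caffeine-minus array 1 (0.0851) or 3 (0.0839) left out, after quantile normalization (0.101) and with arrays centred on their medians (0.0947). Over 17 alternatives the adjusted p ran from 0.00266 to 0.108. The span of Slc16a3 also overlaps that of the kinase gene Csnk1d.

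The promoters of Slc2a1 and Hk2, the members with the largest rises, and of Tpi1 and Pygl, those with the largest falls among members whose probe set is not doubtful, are shown because these genes lie at both ends of the range. Each is the 250 bases before the gene's start from RefSeq (GRCm38.p6), read along the gene's strand, with capitals marking the matches described next. Slc2a1 lies at chr4:119108495-119108744 on the plus strand, and Hk2 at chr6:82774455-82774704, Tpi1 at chr6:124814159-124814408 and Pygl at chr12:70227684-70227933 on the minus strand.
Slc2a1: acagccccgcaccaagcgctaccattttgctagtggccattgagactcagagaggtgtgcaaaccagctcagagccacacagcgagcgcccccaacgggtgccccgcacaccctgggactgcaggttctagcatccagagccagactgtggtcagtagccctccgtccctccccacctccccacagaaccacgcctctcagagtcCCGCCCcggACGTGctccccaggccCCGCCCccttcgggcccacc
Hk2: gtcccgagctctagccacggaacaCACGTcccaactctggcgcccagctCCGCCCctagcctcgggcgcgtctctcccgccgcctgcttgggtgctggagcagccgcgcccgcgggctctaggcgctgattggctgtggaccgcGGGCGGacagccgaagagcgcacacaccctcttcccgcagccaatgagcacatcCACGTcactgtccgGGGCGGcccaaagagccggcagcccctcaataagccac
Tpi1: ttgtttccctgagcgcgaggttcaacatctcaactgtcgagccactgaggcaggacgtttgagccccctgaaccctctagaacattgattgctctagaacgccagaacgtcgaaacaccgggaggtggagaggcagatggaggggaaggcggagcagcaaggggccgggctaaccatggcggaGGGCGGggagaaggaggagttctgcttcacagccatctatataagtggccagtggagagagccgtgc
Pygl: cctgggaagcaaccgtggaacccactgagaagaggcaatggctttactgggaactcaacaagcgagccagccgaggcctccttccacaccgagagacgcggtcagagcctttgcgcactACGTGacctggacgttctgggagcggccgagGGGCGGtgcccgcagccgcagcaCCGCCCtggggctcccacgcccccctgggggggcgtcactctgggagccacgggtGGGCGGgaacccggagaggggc
ACGTG is the core of the hypoxia response element, at which the factor HIF-1 induces many glycolytic genes. Both strands were searched, and CACGTG, the E-box, contains it. It was present in the Slc2a1 window, starting 36 bases before the gene's start, at 2 places in the Hk2 window and at 1 place in the Pygl window, with no match in the Tpi1 window. Of 34 members with a promoter in the table, 14 held it (41.2%), against 20.9% of the 15613 tested genes matched by symbol. Of the 3 members that rose and had a listed promoter 2 held it, and among those that fell 7 of 14. The other capitals mark GGGCGG, the GC box bound by SP1, which 76.5% of the members and 49.3% of the tested genes held. CACGTG was held by 14.7% of the members and 8.1% of the tested genes, and the antioxidant response element core TGACNNNGC by 11.8% and 12.5%. The cAMP response element TGACGTCA was in 1 member, Ldha, and TATAAA in 1, Eno2. These matches describe letters only. Actinomycin D, the inhibitor of transcription, was present in both groups while caffeine differed. Whether the matches relate to the differences was not tested.

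In the upper steps of glycolysis, from hexokinase to the triose phosphates, 2 of 12 measured genes rose, 3 fell and 7 did not pass. These shares, 16.7% and 25.0%, were near the 16.2% and 21.7% of all genes tested. Hk2 encodes the inducible hexokinase that binds mitochondria. Its log2 levels were 7.64, 7.76 and 7.53 in the caffeine-plus arrays, against 6.55, 6.76 and 6.78 in the caffeine-minus arrays. The lowest caffeine-plus array was well above the highest caffeine-minus array. The rise was 1.93-fold (log2 difference 0.95 ± 0.10, limma adjusted p = 1.2e-06), about that of Slc2a1.

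The other hexokinase genes did not pass. Hk3, the isozyme gene known from myeloid cells, differed by -0.18 ± 0.09 (limma adjusted p = 0.138), although its caffeine-plus arrays, at 7.10 to 7.16, all lay below the caffeine-minus arrays, at 7.28 to 7.34. Hk1, the housekeeping isozyme gene, differed by -0.08 ± 0.05 at its brightest probe set (limma adjusted p = 0.195) and by -0.11 ± 0.08 at the dimmer one on its own chromosome (adjusted p = 0.39 in a fit of every probe set).

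Phosphofructokinase is the committed step, and of its 3 subunit genes Pfkp rose, Pfkm fell and Pfkl did not pass. No test compared them with each other. Pfkp, the platelet-type subunit gene, had log2 levels of 9.90, 9.92 and 9.87 in the caffeine-plus arrays and 9.73, 9.71 and 9.64 in the caffeine-minus arrays. The groups did not overlap, but the rise was only 1.15-fold (log2 difference 0.21 ± 0.06, limma adjusted p = 0.0134). It was lost after quantile normalization, where the difference was 0.05 (adjusted p = 0.455), without caffeine-plus array 1 (0.0548) or 2 (0.0707), and without an intensity trend (0.0616). Over 17 alternatives its adjusted p ran from 0.00389 to 0.455. Pfkm, the muscle-type subunit gene, fell by 0.37 ± 0.11 (limma adjusted p = 0.0144), with levels of 6.26 to 6.64 in the caffeine-plus arrays and 6.84 to 6.89 in the caffeine-minus arrays. Pfkm did not pass with caffeine-plus array 1 left out (adjusted p = 0.118), after quantile normalization (0.0768) and with centred arrays (0.0833), over a range of 0.00611 to 0.118 in 16 alternatives. Pfkl, the liver-type gene, differed by 0.09 ± 0.10 (limma adjusted p = 0.574). The spans of Pfkp and Pfkm overlap those of Pitrm1 and Senp1.

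The bifunctional enzymes that make and remove fructose 2,6-bisphosphate, the activator of phosphofructokinase, did not pass. Pfkfb3, whose enzyme chiefly makes it, differed by 0.21 ± 0.09 (limma adjusted p = 0.0928), Pfkfb2 by -0.17 ± 0.08 (0.0948) and Pfkfb4 by -0.08 ± 0.12 (0.699). Pfkfb3 passed after quantile normalization (adjusted p = 0.0333), with centred arrays (0.0229) and without caffeine-minus array 2 (0.0153), over a range of 0.0153 to 0.244 in 17 alternatives. Pfkfb2 passed as a fall after quantile normalization (limma adjusted p = 0.000943), with weighted arrays (0.0424) and without caffeine-minus array 3 (0.0084). Its adjusted p ran from 0.000943 to 0.685 over 17 alternatives. The caffeine-plus arrays of Pfkfb2, at 9.04 to 9.09, all lay below its caffeine-minus arrays, at 9.10 to 9.36.

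Aldolase and triosephosphate isomerase, which split the sugar and interconvert its parts, hold 2 of the 3 falls of this stage, with Pfkm as the other one. Tpi1 had the largest difference of any member. Its log2 levels were 8.97, 9.03 and 9.14 in the caffeine-plus arrays and 10.15, 10.22 and 10.13 in the caffeine-minus arrays. The gene was 2.17-fold lower (log2 difference -1.12 ± 0.07, limma adjusted p = 2.88e-09), and it was the only 1 of the 32 members to differ by at least 2-fold. Its span overlaps that of Spsb2. Aldoa, the main aldolase gene of blood cells and muscle, had log2 levels of 11.87, 11.64 and 11.64 in the caffeine-plus arrays, against 12.23, 12.29 and 12.18 in the caffeine-minus arrays. The groups did not overlap and the gene was 1.43-fold lower (log2 difference -0.52 ± 0.06, limma adjusted p = 2.74e-06). Aldoc, the brain-type aldolase gene, differed by 0.04 ± 0.10 (limma adjusted p = 0.826).

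In the later steps of the pathway, where ATP is made and lactate is formed, no gene rose. Of 7 measured genes 4 fell and 3 did not pass, with a median difference of -0.41. The share that fell, 57.1%, stood beside 21.7% of all genes tested and 3496 of the 9968 above the median level. Pgk1 encodes phosphoglycerate kinase, an ATP-producing step. It had log2 levels of 11.63, 11.72 and 11.77 in the caffeine-plus arrays and 12.13, 12.14 and 12.07 in the caffeine-minus arrays, with no overlap between groups, and was 1.32-fold lower (limma adjusted p = 3.48e-06).

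Ldha encodes the lactate dehydrogenase subunit that favours lactate. It had log2 levels of 10.08, 10.03 and 10.02 in the caffeine-plus arrays, against 10.51, 10.66 and 10.46 in the caffeine-minus arrays. Every caffeine-plus array was lower, and the gene was 1.41-fold lower (log2 difference -0.50 ± 0.06, limma adjusted p = 9.39e-06). Ldhb, the subunit gene that favours pyruvate, differed by -0.16 ± 0.10 at its brightest probe set (limma adjusted p = 0.274), which is doubtful. The dimmer probe set on its own chromosome was 1.27-fold lower (log2 difference -0.35 ± 0.11, adjusted p = 0.0227 in a fit of every probe set).

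Pgam1, the phosphoglycerate mutase gene, had the second largest fall of the members, but its only probe set is doubtful. It had log2 levels of 8.77, 8.95 and 8.81 in the caffeine-plus arrays and 9.82, 9.77 and 9.58 in the caffeine-minus arrays, and was 1.84-fold lower (log2 difference -0.88 ± 0.08, limma adjusted p = 2.3e-07). Eno2, the neuron-type enolase gene, was measured among the dimmer genes, below the median level of all genes tested. Its log2 levels were 5.59, 5.60 and 6.04 in the caffeine-plus arrays and 6.19, 6.13 and 6.35 in the caffeine-minus arrays, 1.39-fold lower (limma adjusted p = 0.00687), with caffeine-plus array 3 close to the caffeine-minus range. Bpgm, whose enzyme makes the haemoglobin regulator 2,3-bisphosphoglycerate in red cells, differed by -0.12 ± 0.09 (limma adjusted p = 0.347).

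Pkm, the pyruvate kinase gene, had 2 probe sets that disagreed. The brighter one, 10585932, differed by -0.08 ± 0.07 (limma adjusted p = 0.388), with 11.00, 10.99 and 10.83 in the caffeine-plus arrays against 10.92, 11.16 and 11.00 in the caffeine-minus arrays, which overlapped. The dimmer one, 10528480, was 1.41-fold lower (adjusted p = 2.91e-05 in a fit of every probe set), and its neighbours by identifier lie on another chromosome. The mean of both passed (limma adjusted p = 0.00161).

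**Figure D2:**
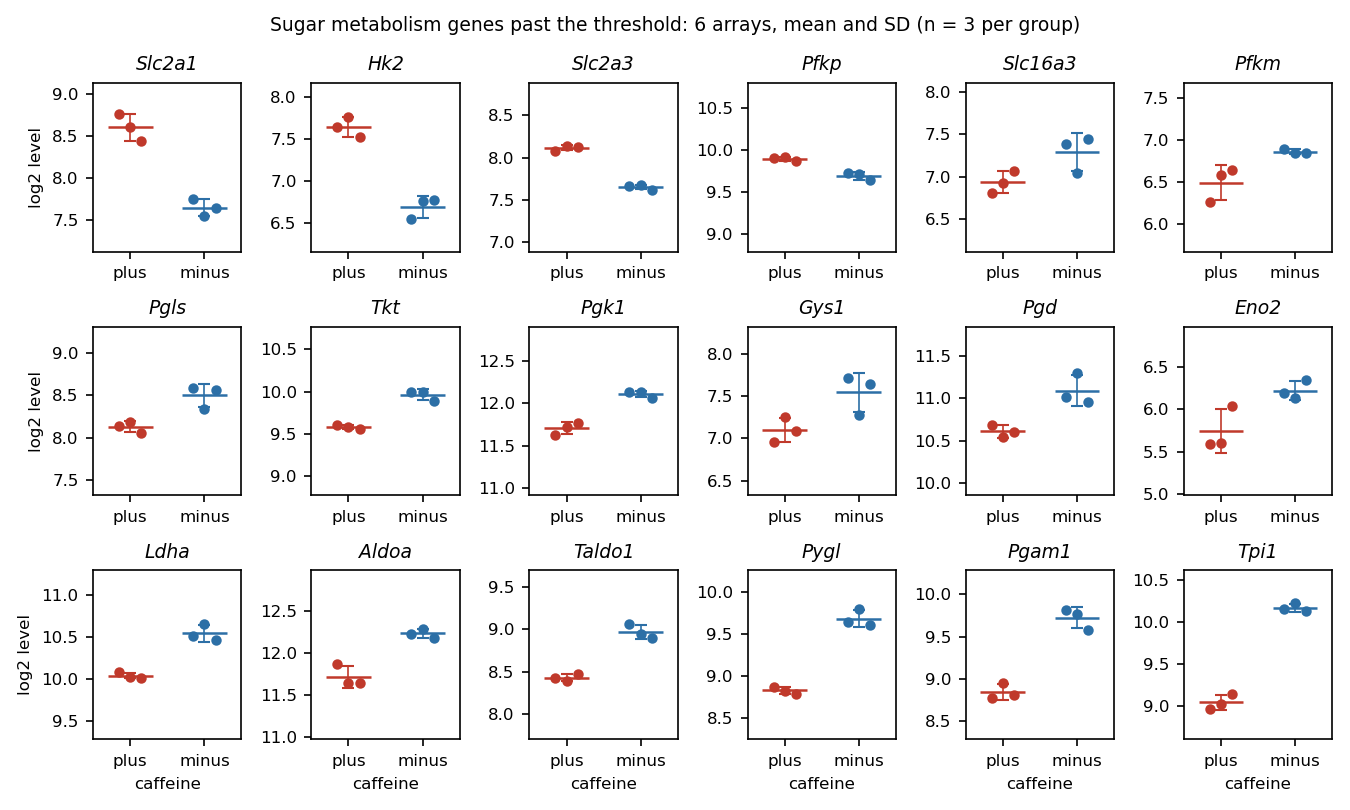
Log2 level (vertical axis, each panel spanning 2 log2 units) of the 18 genes past the threshold in each of the 3 caffeine-plus arrays (left, red) and 3 caffeine-minus arrays (right, blue), with mean and SD, ordered by difference. The groups overlap in Slc16a3 alone, and the group means differ most for Tpi1, Slc2a1 and Hk2.

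In the pentose phosphate pathway falls were measured in both branches. Of 6 measured genes 4 fell, none rose and 2 did not pass. The share that fell, 66.7%, stood beside 21.7% of all genes tested and 3496 of the 9968 above the median level. The median difference of the 6 genes was -0.37. In the oxidative branch, which makes NADPH, Pgd encodes 6-phosphogluconate dehydrogenase. Its log2 levels were 10.69, 10.54 and 10.60 in the caffeine-plus arrays and 11.02, 11.30 and 10.96 in the caffeine-minus arrays. The groups were apart and the gene was 1.40-fold lower (log2 difference -0.48 ± 0.08, limma adjusted p = 7.8e-05). Pgls, the gene of the lactonase one step earlier, had log2 levels of 8.14, 8.19 and 8.06 in the caffeine-plus arrays and 8.59, 8.34 and 8.57 in the caffeine-minus arrays. It was 1.29-fold lower (limma adjusted p = 0.00293), with caffeine-minus array 2 nearest to the other group.

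The non-oxidative branch returns pentoses to glycolysis through transaldolase and transketolase. Taldo1, the transaldolase gene, had log2 levels of 8.42, 8.39 and 8.47 in the caffeine-plus arrays and 9.06, 8.95 and 8.90 in the caffeine-minus arrays. It was 1.46-fold lower (log2 difference -0.54 ± 0.08, limma adjusted p = 2.05e-05). Tkt, the transketolase gene, had 9.61, 9.58 and 9.56 in the caffeine-plus arrays and 10.00, 10.00 and 9.89 in the caffeine-minus arrays, 1.30-fold lower (limma adjusted p = 0.000112). Neither gene's groups overlapped. The genes of the enzymes that interconvert the pentose phosphates did not pass: Rpia, the isomerase gene, differed by 0.12 ± 0.09 (limma adjusted p = 0.406) and Rpe, the epimerase gene, by 0.20 ± 0.09 (0.0841). Rpe passed with the replicate number as a block, with centred arrays and without caffeine-minus array 1 (adjusted p from 0.0182 to 0.407 over 17 alternatives). Its span overlaps that of Kansl1l.

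Of the 3 glycogen genes 2 fell (66.7%) and 1 did not pass. Among all genes tested 21.7% fell, and above the median level 3496 of 9968 did. Pygl encodes the glycogen phosphorylase of liver and leukocytes, which releases glucose 1-phosphate. Its log2 levels were 8.87, 8.82 and 8.79 in the caffeine-plus arrays and 9.64, 9.79 and 9.60 in the caffeine-minus arrays. The groups were far apart and the gene was 1.80-fold lower (log2 difference -0.85 ± 0.07, limma adjusted p = 9.76e-08). Gys1, the glycogen synthase gene, had log2 levels of 6.96, 7.25 and 7.09 in the caffeine-plus arrays and 7.72, 7.28 and 7.64 in the caffeine-minus arrays. The groups nearly met, at caffeine-plus array 2 and caffeine-minus array 2, and the gene was 1.36-fold lower (log2 difference -0.45 ± 0.12, limma adjusted p = 0.00625). Its span overlaps that of Ruvbl2. Gbe1, the branching enzyme gene, differed by 0.11 ± 0.06 (limma adjusted p = 0.246).

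Ratios between genes of opposed or parallel roles were also compared within each array, where the scaling of the array cancels. With 3 arrays against 3 the exact two-sided permutation test cannot give a p below 0.1, so none of the 7 pairs could pass. The Hk2 to Hk3 ratio was higher in caffeine-plus cells by 1.12 ± 0.12 on the log2 scale, and all 3 caffeine-plus arrays were above all 3 caffeine-minus arrays (exact permutation p = 0.1, 0.14 adjusted over the 7 pairs). The Slc2a1 to Slc2a3 ratio was higher by 0.49 ± 0.12, and the Pgd to Pfkl ratio fell by 0.57 ± 0.12, both without overlap and with the same p values. The Gys1 to Pygl ratio was higher by 0.40 ± 0.22, as both genes fell and Pygl fell further. Its caffeine-plus arrays lay 0.22, 0.57 and 0.43 above the caffeine-minus mean, against 0.21, -0.38 and 0.17 in the caffeine-minus arrays, so the groups nearly touched. Without caffeine-minus array 2 this difference was 0.21, and after quantile normalization it was 0.62. The Ldha to Ldhb ratio fell by 0.34 ± 0.06, by 0.15 with the Ldhb probe set on its own chromosome and by 0.57 after quantile normalization. The Slc16a1 to Slc16a3 ratio (0.35 ± 0.19) and the Pfkfb3 to Pfkfb4 ratio (0.29 ± 0.15) overlapped between groups (exact permutation p = 0.2 for each, 0.2 adjusted).

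**Figure D3:**
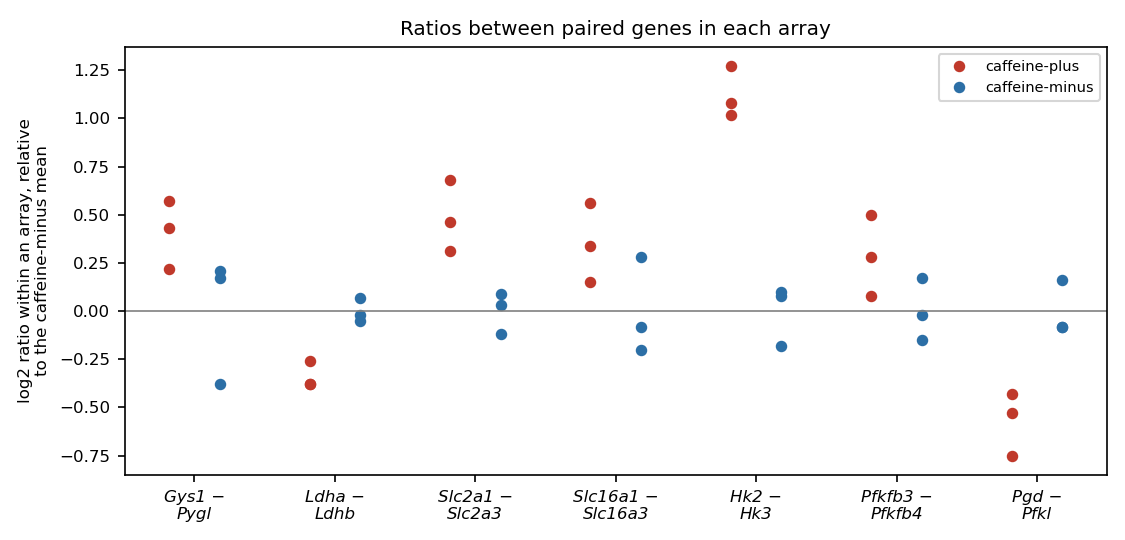
Log2 ratio of 2 genes within an array, relative to the mean of the caffeine-minus arrays (vertical axis), for 7 pairs, with caffeine-plus arrays on the left of each pair and caffeine-minus arrays on the right. Each point is 1 array, and Hk2 over Hk3 shows the widest gap, at 1.02 to 1.27 in the caffeine-plus arrays.

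Genes of the same pathways outside the 35 were read from lists chosen with earlier results of these data known. Among 22 measured enzymes of glycolysis and gluconeogenesis 11 fell (50.0%, against 21.7% of all genes tested), none rose and the median was -0.20. Eno3, the muscle enolase gene, was 3.06-fold lower (limma adjusted p = 8.95e-10), with 7.49 ± 0.06 in caffeine-plus cells and 9.11 ± 0.14 in caffeine-minus cells (SD, n = 3 each). Its span overlaps that of the profilin gene Pfn1. Pgam2, the muscle phosphoglycerate mutase gene, was 2.49-fold lower (limma adjusted p = 8.06e-08), and Adpgk, an ADP-dependent glucokinase gene, 1.45-fold lower.

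G6pc3 encodes the glucose 6-phosphatase whose loss in people causes severe congenital neutropenia. It was 1.61-fold lower, at 8.48 ± 0.10 in caffeine-plus cells and 9.17 ± 0.16 in caffeine-minus cells (SD, n = 3 each, limma adjusted p = 9.48e-06). Slc37a4, the gene of the transporter that brings glucose 6-phosphate to it, was 1.17-fold lower (limma adjusted p = 0.0382).

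Of 13 other pentose phosphate and NADPH genes 7 fell (53.8%, against 21.7% of all genes tested), none rose and the median was -0.25. Rbks, the ribokinase gene, was 2.97-fold lower (limma adjusted p = 4.04e-08). Tktl1, a transketolase-like gene, was 2.23-fold lower and Prps2, whose enzyme makes phosphoribosyl pyrophosphate from ribose 5-phosphate, 1.87-fold lower. Idh2, a mitochondrial NADPH-producing dehydrogenase gene, was 1.75-fold lower (limma adjusted p = 1.45e-07).

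Other glycogen genes were split. Of 25 measured 4 rose and 4 fell, shares of 16% each, near or below the background. Pgm2l1, a glucose 1,6-bisphosphate synthase gene, was 1.76-fold higher, Gsk3b, the gene of a kinase that inhibits glycogen synthase, 1.71-fold higher, and Phkg2, the catalytic subunit gene of the kinase that activates Pygl, 1.52-fold higher (limma adjusted p = 7.48e-08, 1.88e-06 and 3.08e-06). Calm2, a calmodulin gene, was 1.25-fold higher. Those that fell were Ppp1r3b, Phkg1, Nhlrc1 and Gaa, picked out after their values were seen. Phkg1, the other catalytic subunit gene of that kinase, was 1.46-fold lower (limma adjusted p = 0.000992), and its locus overlaps Sumf2.

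Among other sugar transporters and genes linked to them 1 of 17 rose and 4 fell, and the share that fell, 23.5%, was near the 21.7% of all genes tested. Bsg, the gene of basigin, the chaperone of the lactate carriers, was 1.94-fold lower, at 9.15 ± 0.06 in caffeine-plus cells and 10.11 ± 0.12 in caffeine-minus cells (SD, n = 3 each, limma adjusted p = 3.07e-08). Slc2a10 was 1.60-fold lower. The arrestin family gene Arrdc4 was 1.39-fold higher and its relative Txnip, whose protein removes GLUT1 from the cell surface, 1.22-fold lower (limma adjusted p = 0.000261 and 0.00335).

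Among genes that pass pyruvate into mitochondria more rose than fell. Of 13 measured 7 rose, which is 53.8% beside the 16.2% of all genes, and 2 fell. Pdhx, the gene of a structural subunit of pyruvate dehydrogenase, was 2.79-fold higher, at 8.75 ± 0.13 in caffeine-plus cells and 7.27 ± 0.20 in caffeine-minus cells (SD, n = 3 each, limma adjusted p = 1.67e-08). Pdk1, the gene of a kinase that inactivates pyruvate dehydrogenase, was 1.77-fold higher, and Pdp1, the gene of the phosphatase that reactivates it, 1.71-fold higher. Mpc1, a pyruvate carrier gene, was 1.41-fold higher, at a probe set whose neighbours by identifier lie on another chromosome. The list holds genes of opposed function.

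**Figure D4:**
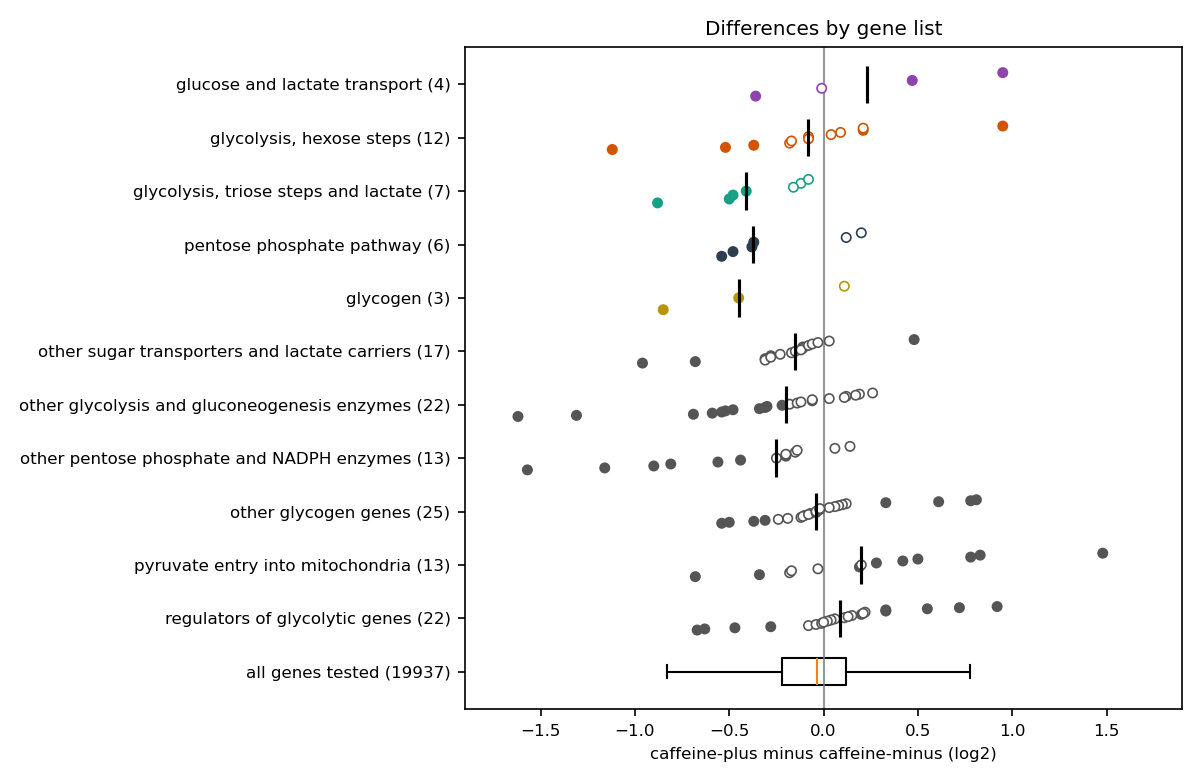
Difference between caffeine-plus and caffeine-minus cells (log2, horizontal axis) for each measured gene of the 5 role groups (coloured) and 6 lists of other genes (grey), with the number of genes in parentheses. Filled points passed the threshold, black bars are medians, and the box of all genes tested spans the quartiles, with whiskers at percentiles 5 and 95. Medians of the lower glycolysis, pentose phosphate and glycogen groups lie at -0.41, -0.37 and -0.45, and that of pyruvate entry at 0.20.

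Arrays of a group correlated at r = 0.986 to 0.992 and arrays of different groups at 0.959 to 0.965 (Pearson, across probe sets), and array medians ran from 6.49 to 6.60. The granulocyte label was checked against 15 neutrophil markers, and the maturity of the cells was not tested. Their mean log2 levels ran from 6.45 for Mmp9 to 12.78 for Mpo. All 15 fell, with a summed level, on the linear scale, of 20347 to 20737 in the caffeine-plus arrays and 29761 to 31888 in the caffeine-minus arrays. Most monocyte and macrophage markers were also lower (7 of 10, sums of 5587 to 5882 against 6853 to 7314). The 2 that were higher were Cd14 (1.39-fold) and Cd68 (1.76-fold), the brightest of that list. All 7 dendritic cell markers were lower (1397 to 1469 against 1850 to 1986). Eosinophil, basophil and mast cell markers were mixed, with 4 of 9 lower, 1 higher (Gata2) and 4 not passing. Their sums were 4990 to 5124 against 7877 to 8733, and their median difference was -0.19. Of B cell markers 2 of 6 were lower, Cd79b and Vpreb1, with sums of 381 to 443 against 614 to 732 and a median difference of 0.00. For T and NK cell markers 1 of 8 was lower, at 751 to 835 against 882 to 958, and for platelet markers 1 of 4, at 426 to 449 against 495 to 531. Erythroid sums were higher, at 1428 to 1457 against 1105 to 1320, with 1 of 6 markers higher, Tfrc, and 1 lower. Beside these marker counts, 21.7% of all genes tested were lower and 16.2% higher. No deposited value is 0, so a marker's absence cannot be read. The part of these shifts in the members' differences was not tested, and in bulk RNA fewer cells of a type and less RNA per cell cannot be told apart.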

How the data were processed

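Granulocyte RNA was measured on 6 arrays in 2 groups of 3. Values of 34760 probe sets per array, from 1.90 to 13.98, were used as deposited and read as log2 levels. No header states the unit, and the steps before deposit are not stated in the labels or the file. The levels are relative, dim probe sets understate changes, and the number of arrays limits the precision.

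Of the probe sets, 21640 have 1 gene symbol in the platform annotation, 1321 have several and 11799 are not listed. Current symbols came from the RefSeq table of GRCm38.p6 through the gene identifier (21553 found). Each of 19937 genes was represented by its brightest probe set. The comparison used limma 3.58.1 (R 4.3.3, eBayes with an intensity trend, two-sided, Benjamini-Hochberg adjustment, threshold 0.05), without a filter on dim genes. The members and the gene lists were chosen with earlier results of these data known. Values of every array are given for the members past the threshold, up to 12 in each direction by size of difference, and of each other list up to 4 genes with the smallest p are named, plus G6pc3, Slc37a4 and Txnip. Arrays, probe sets and variance models were varied, and the probe sets on the own chromosome were added after the annotation was seen. On simulated data with 200 changed genes among 19937, the test recovered 50% of changes of 0.5 and 89% of changes of 1 (log2). In the real data 3229 genes were called higher and 4325 lower. The adjustment is stricter with few changed genes, so these shares do not give the sensitivity here.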

Additional observations from a re-analysis of the deposited data

How the results depend on the processing

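No member's call reversed in any of up to 17 alternatives run per member. Of 18 calls 15 held in all of them, and those of Slc16a3, Pfkm and Pfkp were lost in some. Of the 14 members that did not pass, 8 passed under at least 1 alternative. With arrays centred on their medians the median difference of all genes moved from -0.04 to 0.08, with 4388 genes higher and 3177 lower, against 3229 and 4325 as deposited. Members higher then numbered 7 and lower 12, and the members' median was -0.047. That median was -0.07 after quantile normalization and -0.215 where a gene's probe sets were averaged. Leaving out each array in turn gave 3 to 5 members higher and 12 to 15 lower. Same-numbered arrays deviated from their group means at r = -0.03, 0.19 and 0.29, so the numbers were not taken as pairs, and not every array correlated best with its own number. With the replicate number as a block 3388 genes were higher and 4660 lower, and 5 members were higher and 14 lower. The cause of these shifts was not tested. Detection calls were not used, so whether the 4 members below the median level, Eno2, Pfkm, Pfkfb4 and Aldoc, were above background is not known here.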

Other observations

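Of 22 regulators of glycolytic genes 6 were higher (27.3%, against 16.2% of all genes tested) and 4 lower (18.2%, against 21.7%), with a median difference of 0.09. Among genes above the median level, 3070 of 9968 were higher and 3496 lower, so the 27.3% is not an excess over the brighter genes. Arnt, which encodes the partner of HIF-1 alpha, was 1.89-fold higher, at 9.28 ± 0.07 in caffeine-plus cells and 8.36 ± 0.07 in caffeine-minus cells (SD, n = 3 each, limma adjusted p = 6.63e-08). Of the oxygen-sensing prolyl hydroxylase genes, Egln3 was 1.65-fold higher and Egln2 1.59-fold lower (limma adjusted p = 3.55e-06 and 3.42e-06), and Egln1, picked out after its value was seen, was 1.26-fold higher (limma adjusted p = 0.00641). Akt2, the gene of a kinase of insulin signalling, was 1.55-fold lower at a probe set whose neighbours by identifier lie on another chromosome. Hif1a itself differed by 0.04 ± 0.08 (limma adjusted p = 0.749) and Myc by 0.15 ± 0.07 (0.111), both picked out after their values were seen.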
